A study of Arabidopsis thaliana with 9 samples.

Results

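The CC-type glutaredoxins of the AT4G15660 cluster were followed in seedlings of Arabidopsis thaliana, a small crucifer used as a model plant. They comprise 10 genes of the 32678 with a value, namely 5 neighbours on chromosome 4 (AT4G15660, AT4G15670, AT4G15680, AT4G15690 and AT4G15700) and 5 related genes elsewhere (AT5G18600, AT3G62950, AT1G03020, AT2G47880 and AT3G62930). The genes were chosen by identifier with their low values in csu5-1 against Col already known, so everything measured in the csu5-1 libraries is given for them as a description with no test. The study sequenced polyadenylated RNA of whole seedlings, 3 libraries each of the mutants csu5-1 and csu5-3 and of the wild type Col. The labels give the Col-0 ecotype for all 9 libraries. All seedlings were 5 days old and had been kept under continuous white light, at an intensity of 14.59 μmol m-2 s-1. The series title names COP1 SUPPRESSOR 5, a suppressor of COP1, which is a ubiquitin ligase that holds back light-driven development. The title also speaks of a missense change that reverses the action of the gene, but which of the alleles carries it, and what either allele changes, is not in the labels. Nothing in the labels says that replicates came from separate sowings, so p-values measure the spread between these libraries, which may be technical. In whole seedlings, fewer cells of a type and less RNA per cell cannot be told apart.

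Glutaredoxins are small thiol enzymes that reduce disulfides or remove glutathione from other proteins, using glutathione as the electron donor. The CC type is found in land plants and is named for a pair of neighbouring cysteines at the active site, where other classes have cysteines set apart or a single cysteine. Members of the class bind TGA transcription factors, and many end in a short motif that recruits TOPLESS corepressors. The founding member, ROXY1, shapes petals, and other members in Arabidopsis respond to nitrate and cytokinin and act in root growth and in nitrogen signalling between shoot and root.

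The label was checked against the annotation. In RefSeq's TAIR10.1 annotation 21 genes carry the note of a plant-specific glutaredoxin-like domain, and they are the 10 genes described here and 11 others. RefSeq gives the 10 genes no symbol, and 9 of them are called thioredoxin superfamily proteins, while AT2G47880 is called a glutaredoxin family protein. The 5 neighbours lay on the same strand within 12.6 kilobases, with no other annotated gene between them. Each of the 10 genes had a single coding exon, of 312 bases in AT3G62950 and of 309 bases in the others.

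The stretch of coding sequence around the active site is shown for the 5 neighbours, for AT5G18600 as the closest relative and for AT3G62930 as the relative whose level differed least between csu5-1 and Col among the 9 tested. Capitals mark the 4 codons that begin with the pair of cysteine codons (TGT or TGC), which start at codon 21.
AT4G15660: aataactctTGTTGCATGTCAcacacaatc
AT4G15670: aaaaactcaTGCTGCATGTCGcacacaatc
AT4G15680: aaaaactcaTGTTGCATGTCTcacactatc
AT4G15690: aagaactcaTGCTGCATGTCTcatacaatt
AT4G15700: aagaactctTGCTGCATGTCTcacacaatc
AT5G18600: aagagctctTGCTGTATGTCTcacacgatc
AT3G62930: aaaagctctTGCTGCATGAGCcactcaatt
The windows were read from RefSeq's TAIR10.1 by gene model, 5′ to 3′, since the deposited files hold no coordinates. They lie at chr4:8925979-8926008, chr4:8929288-8929317, chr4:8931864-8931893, chr4:8934495-8934524 and chr4:8937596-8937625 on the plus strand for the neighbours in the order shown. That of AT5G18600 lies at chr5:6183694-6183723 and that of AT3G62930 at chr3:23261766-23261795, both on the minus strand.

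The neighbours are near copies of each other. Over the coding sequence the 10 pairs of neighbours shared 88.3% to 93.2% of bases, whereas AT5G18600 shared 68.9% to 72.5% with them. AT3G62930 shared 63.1% to 65.4%, AT1G03020 62.8% to 63.4%, AT2G47880 57.6% to 59.9% and AT3G62950 56.4% to 59.9% with the neighbours. How the authors treated reads that fit several places, and the read length, are not given in the sources used here. Of the 50-base windows of each neighbour's transcript, 95.3% to 99.4% occurred in no other CC-type gene, and at 100 bases all of them did, so most of each transcript can be told from its copies within the family.

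The 250 bases before the annotated gene starts of the neighbours also share sequence. The longest run found in all 5 of these upstream windows was TTAGCTGCAAG, 11 bases long. On either strand it occurred in 6 of the 27443 upstream windows of the same length (0.022%), and 5 of those 6 belong to the neighbours. These 5 were fixed in advance, since the run was picked as shared by the neighbours, and nothing is read from the share. The run is shown in capitals with the bases around it, because its place before the gene start differs between the copies.
AT4G15660: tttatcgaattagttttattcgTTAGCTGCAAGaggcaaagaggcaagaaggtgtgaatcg
AT4G15670: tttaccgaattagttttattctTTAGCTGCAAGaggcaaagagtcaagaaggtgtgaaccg
AT4G15680: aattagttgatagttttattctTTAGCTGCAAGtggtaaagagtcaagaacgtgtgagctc
AT4G15690: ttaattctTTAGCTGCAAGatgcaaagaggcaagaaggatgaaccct
AT4G15700: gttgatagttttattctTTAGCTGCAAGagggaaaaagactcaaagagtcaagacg
These windows lie on the plus strand at chr4:8925502-8925562, chr4:8928859-8928919, chr4:8931443-8931503, chr4:8934046-8934092 and chr4:8937108-8937163 in the order shown. The run began 47 bases before the gene start in AT4G15660, 150 in AT4G15670, 152 in AT4G15680, 242 in AT4G15690 and 233 in AT4G15700. Known motif letters were searched on both strands of the same windows. TGACG, the core of sites bound by TGA factors, was in 0 of the 10 windows and in 18.6% of all windows, and the G-box CACGTG was in 0 of 10 and in 6.5% of all. AATATCT, the core of the evening element of clock-regulated genes, was in 3 of the 5 neighbours and in none of the related genes, and in 10.0% of all windows. AGATT, the core of sites bound by type-B response regulators, was in 8 of 10 windows, against 63.7% of all, and the longer form AGATACG was in 0 of 10, against 1.7% of all. Of the W-box forms, TTGACT was in 5 of 10 windows, against 19.1% of all, and TTGACC in 0 of 10, against 12.2% of all.

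Levels are given in FPKM, fragments per kilobase of transcript and per M counted, where M stands for 1e+06, so genes can be compared per length. The libraries had an estimated 37.3 to 43.1 M counted reads and 22643 to 22784 genes above 0. The values of the neighbours rested in csu5-1 on about 11 to 44 reads, against about 125 to 428 reads in csu5-3 and 268 to 644 in Col. These read numbers use TAIR10.1 transcript lengths, which may differ from those of the authors.

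All 5 neighbours were low in csu5-1. AT4G15660 had 1.05, 0.32 and 0.80 FPKM in csu5-1, 8.82, 8.91 and 11.64 FPKM in csu5-3, and 13.55, 10.99 and 14.08 FPKM in Col. AT4G15670 had 0.72, 0.78 and 0.94 FPKM in csu5-1, 6.05, 6.07 and 7.84 FPKM in csu5-3, and 9.82, 9.74 and 11.03 FPKM in Col. In both genes every csu5-1 library lay below every other library, and for AT4G15670 every csu5-3 library also lay below every Col library. AT4G15680 had 0.66, 1.50 and 1.48 FPKM in csu5-1, 6.52, 4.39 and 8.97 FPKM in csu5-3, and 10.28, 9.14 and 11.83 FPKM in Col. The 3 genotypes did not overlap for this gene, and csu5-3 varied more than the others, with an SD of 2.29 FPKM.

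AT4G15690 had 1.33, 1.35 and 1.68 FPKM in csu5-1, 14.12, 11.96 and 14.91 FPKM in csu5-3, and 17.52, 14.78 and 24.59 FPKM in Col. It had the highest mean of the 5 neighbours in each genotype, and its csu5-3 and Col ranges overlapped. AT4G15700 had 0.58, 0.97 and 0.81 FPKM in csu5-1, 11.27, 12 and 11.09 FPKM in csu5-3, and 17.75, 14.73 and 20.27 FPKM in Col. This last gene of the row came next after AT4G15690 among the neighbours in csu5-3 and in Col. In csu5-1 it stood below all of them but AT4G15660, and its mean of 0.787 FPKM was 4.47% of that in Col. The means of the other neighbours in csu5-1 were 5.62% of Col for AT4G15660, 7.66% for AT4G15690, 7.98% for AT4G15670 and 11.6% for AT4G15680. Summed over the 5 neighbours, the level was 4.99 ± 0.69 FPKM in csu5-1, 48.2 ± 5.69 FPKM in csu5-3 and 70.0 ± 11.3 FPKM in Col (SD, n = 3 each), so that csu5-1 held 7.1% and csu5-3 68.8% of the Col level.

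**Figure D1:**
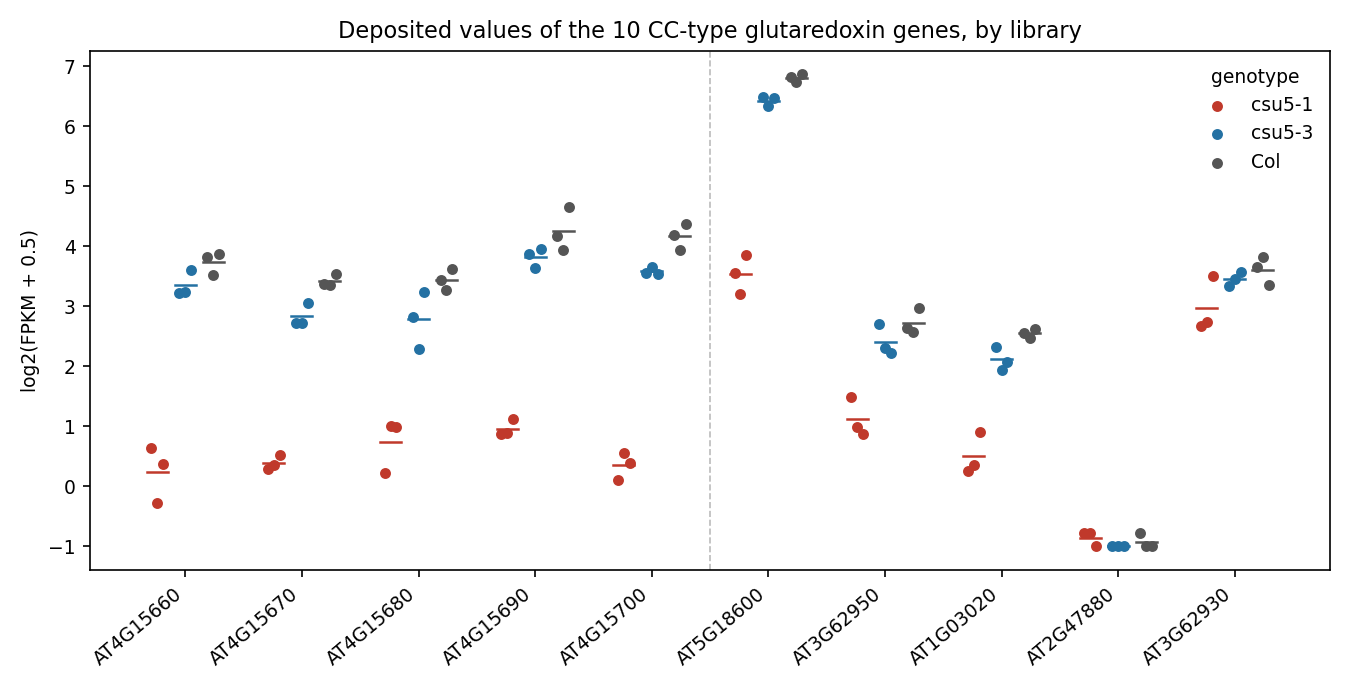
Deposited values of the 10 genes in the 9 libraries, as log2(FPKM + 0.5), with csu5-1, csu5-3 and Col side by side, points for libraries and bars for the mean of 3. The neighbours stand left of the dashed line, and in 8 of the 10 genes all csu5-1 points lie below all others, the exceptions being AT2G47880 and AT3G62930. Over all genes tested, the csu5-1 libraries were all below Col in 35.6% and all below csu5-3 in 35.5%.

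AT5G18600 had the highest mean of the 10 genes in every genotype. It had 11.21, 8.75 and 14.01 FPKM in csu5-1, 88.85, 79.85 and 88.03 FPKM in csu5-3, and 111.95, 106.01 and 115.80 FPKM in Col. The genotypes did not overlap, and its mean in csu5-1 was 10.2% of that in Col, within the range of the neighbours. The summed level of the 10 genes was 26.6 ± 5.85 FPKM in csu5-1, 152.9 ± 10.5 FPKM in csu5-3 and 204.6 ± 15.4 FPKM in Col (SD, n = 3 each).

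The other related genes were less far below Col. AT1G03020 had 0.69, 0.78 and 1.38 FPKM in csu5-1, 4.5, 3.34 and 3.72 FPKM in csu5-3, and 5.35, 5.01 and 5.67 FPKM in Col, with no overlap between genotypes and a csu5-1 mean of 17.8% of Col. AT3G62950 had 2.29, 1.49 and 1.32 FPKM in csu5-1, 5.98, 4.41 and 4.17 FPKM in csu5-3, and 5.70, 5.42 and 7.37 FPKM in Col. Its csu5-1 libraries lay below all others, at 27.6% of Col in the mean, while csu5-3 and Col overlapped. AT3G62930 had 5.85, 6.13 and 10.82 FPKM in csu5-1, 9.64, 10.42 and 11.36 FPKM in csu5-3, and 12.12, 13.63 and 9.67 FPKM in Col. Here 2 of the 3 csu5-1 libraries were low and the third lay within the range of the other genotypes, and without it the log2 fold of csu5-1 against Col was −0.83 in place of −0.56. AT2G47880 was at or near 0 throughout, with 0.08, 0.08 and 0 FPKM in csu5-1, 0 FPKM in each csu5-3 library, and 0.08, 0 and 0 FPKM in Col, which is at most about 2 reads. It overlaps another annotated gene, and no fold is given for it.

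The order of the levels differed between genotypes. In Col AT5G18600 came first with 111.3 FPKM, clear of AT4G15690 with 19.0 FPKM, whose range overlapped that of AT4G15700 with 17.6 FPKM. AT4G15660, AT3G62930, AT4G15680 and AT4G15670 followed in Col with 12.9, 11.8, 10.4 and 10.2 FPKM, each overlapping the next, then AT3G62950 with 6.16 and AT1G03020 with 5.34 FPKM, which overlapped each other. In csu5-1 AT5G18600 with 11.3 FPKM and AT3G62930 with 7.60 FPKM overlapped and stood clear of the rest. The other 7 of the 9 genes lay between 0.723 and 1.70 FPKM in csu5-1, each overlapping the next in the order.

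The neighbours varied together between the replicates of Col, and only in part between those of the mutants. All 5 neighbours were lowest in replicate 2 and highest in replicate 3 of Col. In csu5-3 replicate 3 held the highest value of 4 of the 5, while the lowest values split 2, 2 and 1 over replicates 1, 2 and 3. In csu5-1 replicate 1 held the lowest value of 4 of the 5, while the highest values split 1, 2 and 2. With each genotype's mean removed, the correlations of the 10 pairs of neighbours over the 9 libraries ran from −0.38 to 0.78, with a median of 0.45. These pairs share their libraries, and few residual values stand behind each correlation.

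For the comparison of csu5-1 with Col, 9 of the 10 genes passed the filter of at least 1 FPKM in at least 3 libraries. All 9 reached 1 FPKM in each csu5-3 and each Col library, and 4 of the 9 did so in every csu5-1 library. The log2 folds of csu5-1 against Col were −3.43 ± 0.21 for AT4G15660, −2.97 ± 0.13 for AT4G15670, −2.64 ± 0.24 for AT4G15680, −3.22 ± 0.16 for AT4G15690 and −3.75 ± 0.14 for AT4G15700 (SE, on the log2(FPKM + 0.5) scale). Those of the related genes were −3.18 ± 0.12 for AT5G18600, −1.98 ± 0.18 for AT1G03020, −1.54 ± 0.19 for AT3G62950 and −0.56 ± 0.19 for AT3G62930. Ranked from the lowest fold of 19329 genes tested, the neighbours and AT5G18600 took the places 3, 5, 6, 7, 10 and 15, AT1G03020 was at 37, AT3G62950 at 104 and AT3G62930 at 1846. The median over the 9 genes was −2.97, and that over all genes tested was 0.001.

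A gene was called at an adjusted p below 0.01 (limma, Benjamini-Hochberg) and a fold above 1.5. In csu5-1 against Col 7.78% of all genes tested were called lower (1504) and 8.39% higher (1621). For the 9 genes no call is given in this comparison. In 8 of the 9 all csu5-1 libraries lay below all Col libraries, as in 35.6% of all genes tested. Because the genes were picked from this comparison, nothing is read from that count. With no scaling between libraries the split over all genes was 1962 lower and 1313 higher. No call is given for the 9 genes in csu5-1 against csu5-3 either, since it uses the same csu5-1 libraries. There 6.48% of all genes were called lower (1253) and 8.16% higher (1578). With no scaling that split was 1689 lower and 1300 higher. The log2 folds of csu5-1 against csu5-3 were −3.05 for AT4G15660, −2.38 for AT4G15670, −1.98 for AT4G15680, −2.79 for AT4G15690, −3.16 for AT4G15700 and −2.80 for AT5G18600. They were −1.54 for AT1G03020, −1.22 for AT3G62950 and −0.41 for AT3G62930.

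The comparison of csu5-3 with Col did not serve to choose the genes and could be tested, though it shares the Col libraries. None of the 9 genes was called, and their means were 63.6% to 88.7% of those in Col. The genes were chosen as low against these same Col libraries, so a Col value that is high by chance lowers both mutants' folds, and nothing is read from the direction they share. The log2 folds of csu5-3 against Col and their adjusted p (limma, Benjamini-Hochberg) were −0.38 ± 0.21 and 0.30 for AT4G15660, −0.59 ± 0.13 and 0.025 for AT4G15670, −0.66 ± 0.24 and 0.13 for AT4G15680, −0.44 ± 0.16 and 0.13 for AT4G15690, and −0.59 ± 0.14 and 0.03 for AT4G15700. For AT5G18600 they were −0.38 ± 0.12 and 0.097, for AT1G03020 −0.43 ± 0.18 and 0.18, for AT3G62950 −0.32 ± 0.19 and 0.34, and for AT3G62930 −0.16 ± 0.19 and 0.68. Leaving out single libraries moved these folds. They then ran from −0.89 to −0.41 for AT4G15680, −0.59 to −0.23 for AT4G15690 and −0.51 to −0.32 for AT4G15660. For AT3G62950 they ran from −0.47 to −0.19 and for AT3G62930 from −0.29 to −0.05. The fold of AT4G15680 was −0.41 without csu5-3 replicate 2. Without Col replicate 3 those of AT4G15690, AT3G62950 and AT3G62930 were −0.23, −0.19 and −0.29, and that of AT3G62930 was −0.05 without Col replicate 2. Of the 9 genes 6 had an unadjusted p below 0.05 (limma), all of them lower. Of all 19329 genes, 2367 were lower and 1885 higher at that unadjusted p. The median log2 fold was −0.43 over the 9 genes and −0.59 over the 5 neighbours, while 50.5% of all genes tested lay below 0. The csu5-3 libraries were all below the Col libraries in 5 of the 9 genes, and in 13.2% of all genes tested. Called genes were few in csu5-3 as a whole, 0.129% lower (25) and 0.119% higher (23). Their number rested on single libraries, falling to 7 lower and 4 higher without Col replicate 1 and to 15 lower and 5 higher without csu5-3 replicate 2. The higher calls came to 9 without Col replicate 3 and 11 without csu5-3 replicate 1.

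The remaining 11 CC-type genes did not share a direction. The 10 genes above were chosen with their low values in csu5-1 known, so nothing is read from the contrast between them and these 11. In csu5-1 against Col 8 of the 11 were tested, of which 1 fell and 2 rose, beside 7.78% of all genes tested called lower and 8.39% called higher. AT2G30540 fell, with 2.27, 2.25 and 1.92 FPKM in csu5-1, 6.99, 7.01 and 6.69 FPKM in csu5-3, and 9.84, 7.15 and 7.88 FPKM in Col, a log2 fold of −1.65 ± 0.12 (limma adjusted p = 3.3e-07). Its csu5-1 libraries were clear of all others, and its csu5-3 libraries were all below Col, though with an adjusted p of 0.27 (limma). AT4G33040 rose, with 7.83, 8.65 and 8.89 FPKM in csu5-1, 4.97, 5.11 and 4.05 FPKM in csu5-3, and 2.90, 3.96 and 3.13 FPKM in Col, a log2 fold of 1.31 ± 0.13 (limma adjusted p = 4.3e-06). ROXY2, which with ROXY1 is needed for anther development, rose as well, with 5.64, 5.10 and 6.12 FPKM in csu5-1, 3.28, 2.97 and 3.99 FPKM in csu5-3, and 2.99, 2.42 and 3.59 FPKM in Col, a log2 fold of 0.89 ± 0.15 (limma adjusted p = 0.00032). For both genes that rose, all csu5-1 libraries lay above all others.

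GRXS13, the most abundant of these 11 genes, had 24 to 26.30 FPKM in csu5-1, 28.55 to 29.26 FPKM in csu5-3 and 31.92 to 34.98 FPKM in Col and was not called. ROXY1 and GRX480, a gene of salicylic acid and jasmonate crosstalk, were near 1 FPKM in all genotypes and were not called either. AT2G47870, AT3G62960 and AT5G11930 were too low to be tested. The summed level of the 11 genes was 54.3 ± 0.56 FPKM in csu5-1, 53.4 ± 1.30 FPKM in csu5-3 and 59.7 ± 3.16 FPKM in Col (SD, n = 3 each). In csu5-3 against Col 0 of the 8 were called. AT1G06830 had the lowest log2 fold there of all CC-type genes tested (−0.94 ± 0.33, limma adjusted p = 0.12). Its level was 0.71 to 2.48 FPKM in csu5-3 and 2.62 to 5.21 FPKM in Col.

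**Figure D2:**
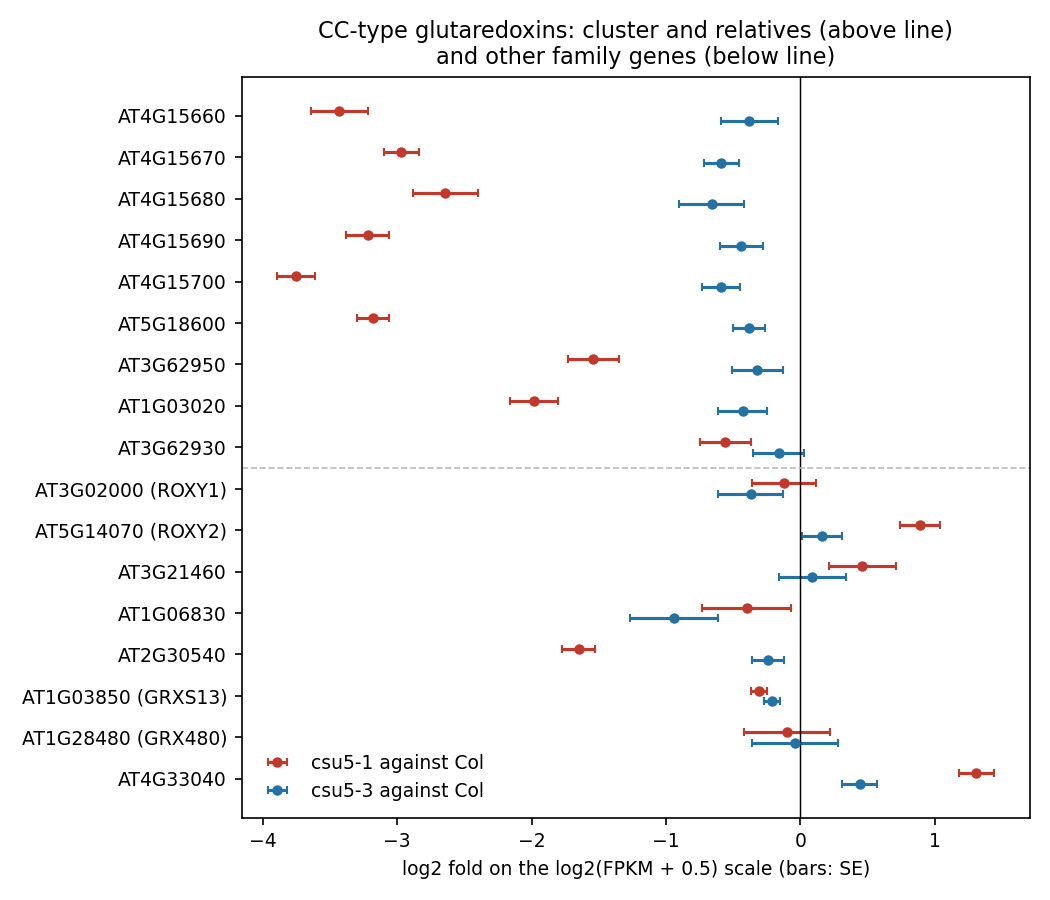
Log2 fold with its SE for the tested CC-type glutaredoxins, in csu5-1 against Col and in csu5-3 against Col, with the 9 tested genes of the cluster and its relatives above the dashed line and 8 other family genes below it. In csu5-1 the upper 9 run from −3.75 to −0.56, while the lower 8 run from −1.65 for AT2G30540 to 1.31 for AT4G33040. The upper genes were chosen with their low values in csu5-1 known. AT2G30540 lies below AT3G62950 (−1.54) and AT3G62930 (−0.56) of the upper 9.

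Folds were also set against coding sequence, with identity taken as identical bases over the longer coding sequence of each pair. A longer gene thus has a lower percent by its length alone. AT4G15660 shared 196 bases with ROXY1, of 411 (47.7%), and also 196 with AT3G21460, of 309 (63.4%). AT5G18600, at a median identity of 71.5% to the 5 neighbours, had a fold like theirs. Among the 6 genes at 58.9% to 63.8% identity the log2 fold in csu5-1 ranged widely, including AT1G03020 at 63.4% with −1.98, AT3G62930 at 63.8% with −0.56 and AT3G21460 at 63.4% with 0.46. The 5 tested genes at 42.1% to 48.5% identity had longer coding sequences, of 411 to 480 bases. Of these, AT4G33040 and ROXY2 rose, whereas GRXS13, GRX480 and ROXY1 had log2 folds of −0.31, −0.10 and −0.12 and were not called. This is a description of 17 genes that share ancestry and libraries, and the genes of the cluster and its relatives were chosen with their low values in csu5-1 known.

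**Figure D3:**
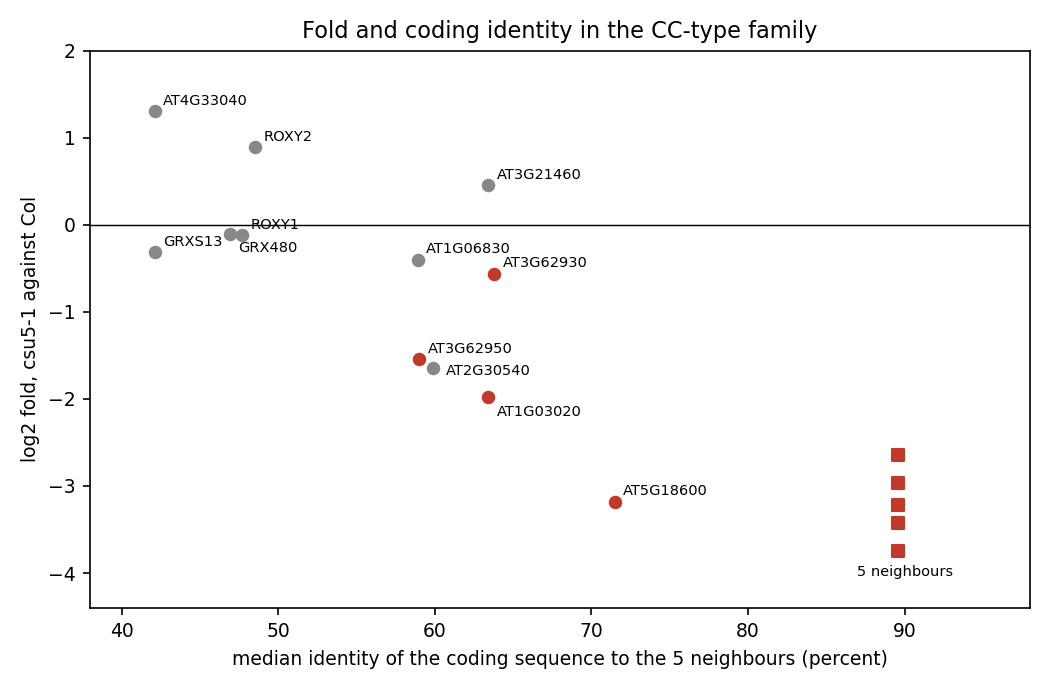
Log2 fold of csu5-1 against Col over the median percent identity of the coding sequence to the 5 neighbours, for the 17 tested CC-type genes, with red marks for the 9 genes described and grey for the others. The squares are the neighbours, drawn at the median identity of their 10 pairs (89.6%). Identity is over the longer sequence of each pair, so it also falls with coding length.

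Genes around the cluster were looked at because of their position, outside the rule by which other genes were named. Of the nearest 10 genes on each side that had a value and an annotated product, 12 could be tested. In csu5-1 against Col 3 fell and 1 rose, beside 7.78% of all genes tested called lower and 8.39% called higher. AT4G15710, a cystatin-like gene and the first of these after the cluster, was at 0, 0 and 0.12 FPKM in csu5-1, 2.23, 0.75 and 2.52 FPKM in csu5-3, and 1.53, 2.18 and 2.62 FPKM in Col, a log2 fold of −2.23 ± 0.31 (limma adjusted p = 7.5e-05). It was close to nil in csu5-1 and overlapped between csu5-3 and Col. This gene passed the filter through csu5-3 and Col libraries only. With csu5-1 near nil and low values elsewhere, the size of its fold depends on the constant added before taking logs. On the other side AT4G15640, annotated as an adenylyl cyclase, had 4.28 to 4.78 FPKM in csu5-1, 7.83 to 8.09 FPKM in csu5-3 and 8.11 to 9.30 FPKM in Col, a log2 fold of −0.82 ± 0.09 (limma adjusted p = 1.3e-05). Between it and the cluster AT4G15650 was at 0 in every library. Farther out, MO1, a monooxygenase gene 47.1 kilobases from the start of AT4G15660, fell (−0.80 ± 0.06, limma adjusted p = 4.1e-07) and CLA1, the first enzyme of the plastid isoprenoid pathway, rose (0.69 ± 0.05, limma adjusted p = 1.2e-07). The other 8 tested genes were not called, and in csu5-3 against Col 0 of the 12 were.

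**Figure D4:**
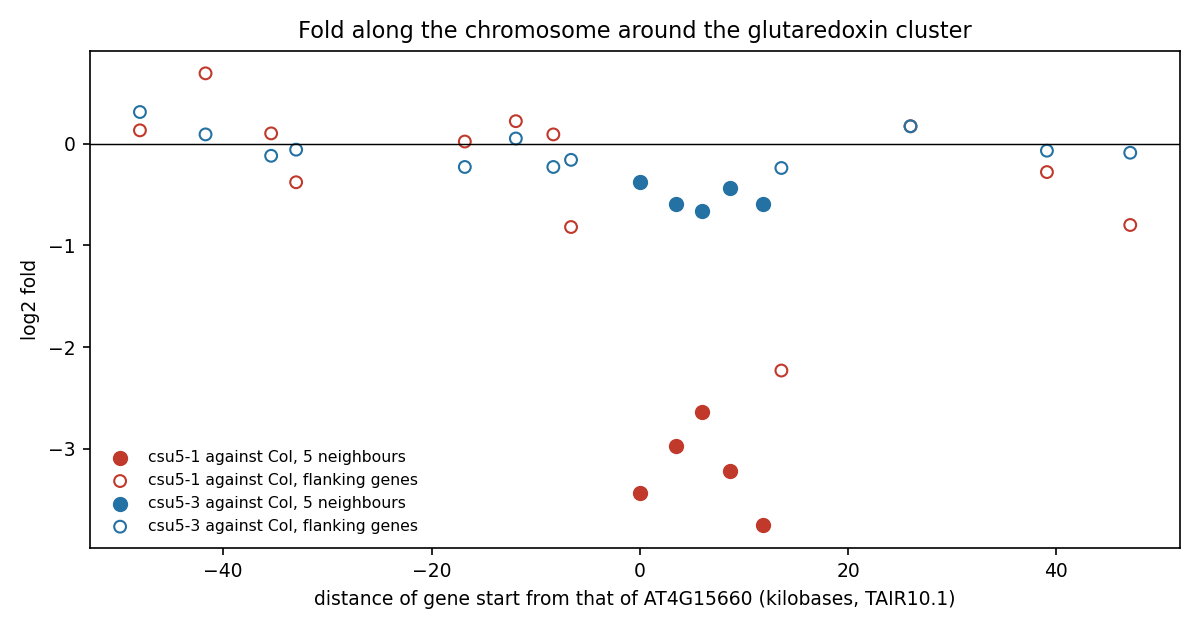
Log2 fold of csu5-1 and csu5-3 against Col over the distance of each gene start from that of AT4G15660, with filled marks for the 5 neighbours and open marks for 12 tested flanking genes. In csu5-1 the neighbours lie between −3.75 and −2.64, the next gene after them at −2.23, and the other flanking genes between −0.82 and 0.69. That next gene was close to nil in csu5-1 and low elsewhere, so the size of its fold depends on the constant added before taking logs.

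Partners and pathways of the class were counted from lists of genes, beside 7.78% of all genes tested called lower and 8.39% called higher in csu5-1 against Col. Among 10 glutaredoxins of the CPYC and CGFS classes, which include the housekeeping enzymes and iron-sulfur cluster carriers, 1 fell and 1 rose in csu5-1 against Col, and with no scaling 3 were called lower. At an unadjusted p below 0.05, 5 were lower and 1 higher, and 8 of the 10 had a log2 fold below 0. GRXC1 fell to 23.1 ± 0.567 FPKM in csu5-1, against 40.8 ± 2.47 FPKM in csu5-3 and 47.9 ± 5.28 FPKM in Col (SD, n = 3 each), a log2 fold of −0.95 ± 0.08 (limma adjusted p = 7.8e-07). CXIP1, a chloroplast monothiol glutaredoxin, rose by 0.68 ± 0.09 (limma adjusted p = 3.5e-05). Of the 10 TGA factors, 1 rose and 0 fell. TGA7 averaged 15.5 ± 0.707 FPKM in csu5-1, 10.6 ± 0.751 FPKM in csu5-3 and 10.2 ± 0.396 FPKM in Col (SD, n = 3 each), a log2 fold of 0.66 ± 0.08 (limma adjusted p = 1.9e-05) that was 0.58, under the fold threshold, with no scaling. Without csu5-1 replicate 1 the count of TGA factors called higher was 2. Of the 5 TOPLESS corepressors none was called, with 4 of 5 at an unadjusted p below 0.05, all higher. Of all 19329 genes, 5354 were higher and 5455 lower at that unadjusted p. The TOPLESS corepressor with the smallest p was AT3G15880 (WSIP2), with a log2 fold of 0.35 ± 0.06 (limma adjusted p = 0.00035), too small a fold to be called.

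In the cytokinin and nitrate lists, genes past both thresholds went one way within each list, though some genes of smaller fold went the other way. Over all genes tested, 7.78% were called lower and 8.39% higher in csu5-1 against Col. Of 9 tested type-A response regulators, which are induced by cytokinin and dampen its signal, 4 fell and 0 rose in csu5-1 against Col. At an unadjusted p below 0.05 (limma), 4 were lower and 1 higher, namely ARR9 (0.32 ± 0.06, limma adjusted p = 0.00081). ARR4 averaged 51.9 ± 5.46 FPKM in csu5-1, 113.9 ± 9.13 FPKM in csu5-3 and 109.9 ± 1.89 FPKM in Col (SD, n = 3 each), a log2 fold of −1 ± 0.08 (limma adjusted p = 5.2e-07). ARR7 fell by 1.05 ± 0.12 on the log2 scale and ARR6 by 0.73 ± 0.08 (limma adjusted p = 1.5e-05 and 1e-05). The fourth, ARR3, named to complete the count, had a log2 fold of −0.69 ± 0.17 (limma adjusted p = 0.0048) and was not called with no filter on low values (limma adjusted p = 0.012), nor when Col replicate 1, Col replicate 2, csu5-1 replicate 1 or csu5-1 replicate 3 was left out. Of 6 type-B response regulators, the DNA-binding factors of the pathway, ARR11 alone was called, as higher (1.44 ± 0.10, limma adjusted p = 2e-07), with 12.64 to 14.54 FPKM in csu5-1, 4.91 to 5.98 FPKM in csu5-3 and 4.74 to 5.16 FPKM in Col. At an unadjusted p below 0.05 (limma), 3 of the 6 were higher and 0 lower.

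Of 18 tested genes of nitrate uptake, reduction and response 4 rose and 0 fell. At an unadjusted p below 0.05 (limma), 12 were higher and 1 lower, namely LBD39 (−0.33 ± 0.07, limma adjusted p = 0.0022). AT3G25790 averaged 30.1 ± 1.62 FPKM in csu5-1, 3.26 ± 0.481 FPKM in csu5-3 and 3.49 ± 0.918 FPKM in Col (SD, n = 3 each), a log2 fold of 3.04 ± 0.14 (limma adjusted p = 7.8e-09). NIA1, a nitrate reductase, had 983.8 to 1030 FPKM in csu5-1, 310.4 to 350.7 FPKM in csu5-3 and 309.5 to 344.3 FPKM in Col, a log2 fold of 1.71 ± 0.06 (limma adjusted p = 1e-09). The nitrate transporter and sensor NRT1.1 rose by 0.76 ± 0.06 and, named to complete the count, G6PD2 of the plastid pentose phosphate pathway by 0.77 ± 0.08 (limma adjusted p = 1.1e-06 and 5.1e-06). Of the 2 receptors of CEP peptides, which carry a root nitrogen-starvation signal, AT1G72180 rose by 1.17 ± 0.07 (limma adjusted p = 5.7e-08), with 29.93 to 34.34 FPKM in csu5-1, 18.48 to 18.91 FPKM in csu5-3 and 13.85 to 15.73 FPKM in Col. Of 11 genes of glutathione synthesis and thiol reduction only the cytosolic thioredoxin TRX1 was called (0.72 ± 0.12, limma adjusted p = 0.00032), and it was not called without Col replicate 3. In csu5-3 against Col 0 genes of any of these lists were called, and the lists held 0 to 4 genes each that were lower and 0 to 2 that were higher at an unadjusted p below 0.05.

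Tissue markers moved with the genotype as well. Of 11 tested root markers 4 fell and 1 rose in csu5-1 against Col, beside 7.78% of all genes tested called lower and 8.39% called higher. The root hair wall genes PRP3, EXPA18 and PRP1 fell, with log2 folds of −1.45 ± 0.11, −1.17 ± 0.15 and −1.75 ± 0.23 (limma adjusted p = 4.3e-07, 3.6e-05 and 4.2e-05). The fourth that fell, EXPA7 of growing root hairs (−0.70 ± 0.15, limma adjusted p = 0.002), was not called without Col replicate 1 or csu5-1 replicate 2. The endodermal gene CASP2 (0.59 ± 0.08, limma adjusted p = 8.3e-05) lay just above the fold threshold and was not called with no scaling, at 0.51, or without Col replicate 1 or either of csu5-1 replicates 2 and 3. At an unadjusted p below 0.05 (limma), 8 of the 11 were lower and 2 higher. The level summed over all 14 root markers was 316.7 to 346.3 FPKM in csu5-1, 337.3 to 412.1 FPKM in csu5-3 and 373.3 to 395.1 FPKM in Col, with 0 markers at 0 throughout. TIP2;3, which was not called, weighed most in this sum, with means of 173.3 FPKM in csu5-1 and 222.3 FPKM in Col. CASP1 came next and went the other way, with 91.4 FPKM in csu5-1 and 71.8 FPKM in Col.

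Of 7 markers of green shoot tissue, LHCA3 (1.26 ± 0.06, limma adjusted p = 7.8e-09) and CAB3 (2.11 ± 0.12, limma adjusted p = 3.2e-08), both of the light-harvesting antenna, rose. CAB1 fell by 0.60 ± 0.13 on the log2 scale (limma adjusted p = 0.0016) and was not called with no filter or without Col replicate 3 or csu5-1 replicate 1. Under quantile normalization its log2 fold was 0. That method gives genes of equal rank the same value in every library. A gene of unchanged rank thus gets a fold of 0 at any level, and nothing is read from this 0. CAB1 and CAB3 are near-identical antenna copies, so their split of reads is uncertain. The summed level of the 7 markers was 44397 to 45845 FPKM in csu5-1, 51107 to 57250 FPKM in csu5-3 and 54583 to 57548 FPKM in Col, with 0 markers at 0 throughout. CAB1 and RBCS1A weighed most in this sum, with means of 24046 and 6016 FPKM in csu5-1 and 38740 and 8401 FPKM in Col. Most of the 7 went the other way. At an unadjusted p below 0.05 (limma), 5 were higher and 2 lower in csu5-1 against Col, with a median log2 fold of 0.45. The part of these marker shifts in the levels of the glutaredoxin genes was not tested.

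Genes outside the family with the most similar profile were found by Pearson's r over the 9 libraries with the mean standardized profile of the 5 neighbours. Since csu5-1 stands apart in all of them, this measure mostly reads that difference, and 49 of 19329 genes had an r above 0.99. The closest were AT4G29905 (r = 0.9984), an uncharacterized gene with 178.8 to 189.5 FPKM in csu5-1, 426.7 to 495.9 FPKM in csu5-3 and 530.8 to 598.7 FPKM in Col, and AT1G74060 (r = 0.9974), annotated as a ribosomal protein L6 family member. The other 3 were AT3G11450 (r = 0.9967), AT3G23700 (r = 0.9967) and PDE312 (r = 0.9964), with PDE312 at 7.80 to 8.87 FPKM in csu5-1, 19.94 to 22.31 FPKM in csu5-3 and 21.23 to 25.07 FPKM in Col. In all 5 the order was csu5-1, csu5-3, Col from low to high in the ranges, with overlap between csu5-3 and Col in AT3G11450 and PDE312. Within the family AT5G18600 had an r of 0.992, AT1G03020 of 0.981, AT2G30540 of 0.979, AT3G62950 of 0.938 and AT3G62930 of 0.69, while AT4G33040 had −0.964 and ROXY2 −0.883.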

How the data were processed

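The submitters' processing notes name Trimmomatic, HISAT2 2.05, HTSeq and the build TAIR10, without their settings. Each of the 9 deposited files holds 32678 genes with a single value and no header. The deposited values were read as FPKM from the values alone. Their sums, 691388 to 718744, differ between libraries, and 72.3% to 80.0% of low values on short genes are whole multiples of what 1 read is worth (14.6% to 16.5% at other depths). They may equally be RPKM. The sources used here do not say how the authors computed them.

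With limma 3.58.1 in R 4.3.3, log2(FPKM + 0.5) was fitted with a mean per genotype over all 9 libraries and a mean-variance trend, after scaling each library by a mean of log ratios trimmed by 0.3 at each end. The 19329 genes that reached 1 FPKM in 3 or more libraries entered the test, and the procedure was checked on simulated data. Replicate libraries differed by more than counting error (mean chi-square per gene 8.17 to 14.17). The members and lists were chosen with earlier results of these data known. From each list the called genes with the 3 smallest p in csu5-1 against Col were named (the smallest where none was called), with every list gene called in csu5-3. Names, products and sequences are RefSeq's for TAIR10.1, which matched 31912 identifiers, and whether counting used strand is not stated in those sources. Python 3.11.15, pandas 2.3.3, numpy 2.4.6 and matplotlib 3.10.9 were used.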

Additional observations from a re-analysis of the deposited data

How the results depend on the processing

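Alternatives were other pseudocounts, filters and scalings, a replicate block, fits of 2 genotypes only and leaving out each library. In csu5-3 against Col 0 of the 9 tested glutaredoxins were called under each of the 17 alternatives, and their median log2 fold ran from −0.50 to −0.34. In csu5-1 their median was −3.23 against Col with a pseudocount of 0.1 and −2.58 with 1, and against csu5-3 it was −2.80 and −2.02. Over all genes, csu5-3 against Col gave 3 higher and 6 lower calls with no filter, and 15 higher calls in a fit of those 2 genotypes. Leaving out 1 library gave 4 to 25 higher and 7 to 26 lower calls. CAB1, at −0.60 in csu5-1 against Col, had a log2 fold of 0 under quantile normalization. A gene of unchanged rank gets that fold by the method itself, so nothing is read from it. Same-numbered libraries of csu5-3 and Col deviated together weakly (correlations of 0.05 to 0.15), and those of csu5-1 and Col too (0.05 to 0.08). The main fit did not pair them, and whether the numbers mark a shared batch was not tested. With the replicate block, 43 genes were called lower in csu5-3. Each library of these comparisons correlated best with its own number, and in csu5-1 against csu5-3 5 of 6 did. In csu5-1 the neighbours rested on as few as about 11 reads, which limits their folds.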
